A study of Mus musculus with 2 samples.

Results

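Lysosomes are acidic vesicles in which cells break down protein, glycan and lipid, and 35 genes that encode lysosomal enzymes, their activators and proteins of the lysosomal membrane are described here in myeloid cells of the mouse brain. The genes were chosen by symbol from the 32589 features of the deposited tables, as 12 proteases, 8 glycosidases, 8 lipid hydrolases, activators and other soluble proteins, and 7 membrane proteins. This choice was made with earlier results of these data known, so counts set against all genes are not an independent check. The cells came from the prefrontal cortex of C57BL/6 mice given either vehicle or the glucocorticoid hormone corticosterone by oral gavage. They were sorted for low CD45 and for CD11b, the gate used for microglia, and profiled with the Singleron GEXSCOPE single-cell RNA kit. Each group, vehicle and corticosterone, is represented by 1 library. Sex, age, dose, duration and the number of animals behind a library were not stated in the labels. With 1 library per group no difference below has a replicate check and no test was made. Intervals are exact 95% intervals that cover counting error only, and treatment, animal and library preparation cannot be told apart.

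Lysosomal enzymes are made in the endoplasmic reticulum, most are tagged with mannose 6-phosphate, and they become active at the low pH that a proton pump maintains. Cathepsins cut the proteins that reach the lysosome, glycosidases remove sugars from glycoproteins and glycolipids one at a time, and saposins and other activators present lipids to their hydrolases. Microglia are the resident phagocytes of the brain, and inherited loss of several of these enzymes causes storage disease with neurodegeneration. The TFEB family of transcription factors is known to bind E-box sequences in promoters of many lysosomal genes.

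Filtering left 10500 vehicle cells with 49325067 UMIs (molecular tags, each counting a captured transcript a single time) and 17883 corticosterone cells with 85103539 UMIs. Mitochondrial genes took a median of 2.67% of a cell's UMIs in vehicle and 4.2% in corticosterone, and 104 cell barcodes occurred in both libraries. Microglia-like cells, named from markers such as P2ry12 and Tmem119, numbered 8290 and 15433, with 33513689 and 72596317 UMIs. Their 4 clusters were split by library: cluster 2 held 7253 of the vehicle cells and 263 of the corticosterone cells, whereas cluster 0 held 822 and 7379 and cluster 1, led by cytokine genes such as Tnf, Ccl4 and Il1b, held 196 and 7378. Cluster 6, led by interferon-induced genes such as Ifit2 and Ifit3, held 19 and 413. The lysosomal genes had been left out of the genes used for clustering, but Ifi30 and Man2b1 were among the 10 leading genes of cluster 0. Summed over 10 microglia markers, microglia-like cells had 26877 CPM (UMIs per 1e6 UMIs of the class) in vehicle and 18573 in corticosterone. Border macrophage-like cells, named from Lyve1, Pf4, Mrc1 and related markers, numbered 1176 and 793, and neutrophil-like cells, named from S100a8, Camp, Ngp and related markers, numbered 432 and 399. Both of the smaller classes also carried microglia markers, at 0.858 and 0.676 of the microglia-like level in macrophage-like cells (vehicle and corticosterone) and at 0.588 and 0.352 in neutrophil-like cells.

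In microglia-like cells, 10 of the lysosomal genes were higher in the corticosterone library and 0 were lower. Levels of each gene are given as CPM of the summed UMIs of the class, and a gene was counted as higher or lower when it differed by 1.5 times or more at a mean of at least 20 CPM over the libraries. Of the 35 genes, 34 reached that level, and Gla, the alpha-galactosidase that is deficient in Fabry disease, did not, at 6.03 and 5.68 CPM in vehicle and corticosterone. Of the 34, 10 were higher, which is 29.4%, against 5.36% of the 6609 genes at that level, and 0 were lower, against 4.72% of those genes. The log2 ratio of corticosterone over vehicle was above 0 for 28 of the 34 and below 0 for 6, with a median of 0.36, where the median of all genes was -0.00. Together the 35 genes took 3.87% of the UMIs of microglia-like cells in vehicle and 4.80% in corticosterone. CPM is not divided by transcript length, so levels are compared between libraries and not between genes.

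**Figure D1:**
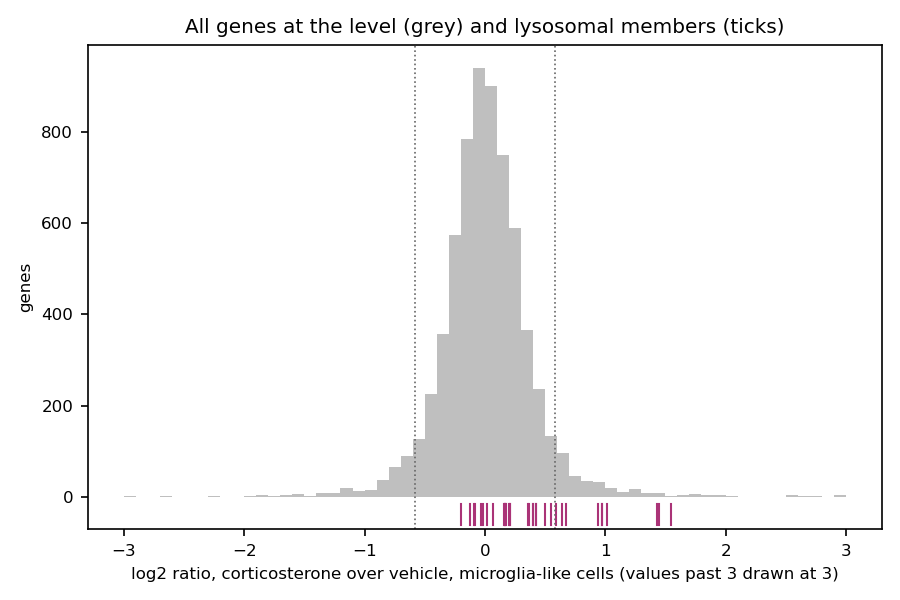
Log2 ratio of corticosterone over vehicle in microglia-like cells for the 6609 genes at the level minimum (grey, genes per bin) and for the 34 lysosomal genes among them (ticks), with dotted lines at 1.5 times. The ticks run from -0.20 to 1.55 and 10 of them lie to the right of the upper dotted line, none to the left of the lower one.

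Among the 12 proteases, Ctsc, Ctsz and Ctsh were higher and 0 were lower. Ctsc, cathepsin C, a dipeptidyl peptidase that activates serine proteases of granules, was at 403 CPM in the vehicle library and 1086 CPM in the corticosterone library, a log2 ratio of 1.43 (95% interval 1.40 to 1.46). Ctsz, a carboxypeptidase, was at 1211 and 2377 CPM, a log2 ratio of 0.97. Ctsh, which acts mainly as an aminopeptidase, was at 541 and 1059 CPM, also a log2 ratio of 0.97. These 3 were thus between 1.96 and 2.70 times higher, and the other 9 proteases were not past the threshold. Ctsd, the main aspartic protease of lysosomes, was at 7120 and 8056 CPM (log2 ratio 0.18). Ctss, the endopeptidase that processes the invariant chain of MHC class II, was at 6754 and 6837 CPM (log2 ratio 0.02). Ctso, a little-studied cysteine protease, had the lowest log2 ratio of all 34 genes, -0.20, with 102 and 88.8 CPM. The others, Ctsa, Ctsb, Ctsf, Ctsl, the asparaginyl endopeptidase Lgmn and the tripeptidyl peptidase Tpp1, had log2 ratios from 0.07 (Ctsf) to 0.42 (Ctsa). The median over the 12 proteases was 0.19.

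Of the 7 glycosidases at the level, 4 were higher, with a median log2 ratio of 0.64. Differences between the roles were not tested. Man2b1, the lysosomal alpha-mannosidase whose loss causes alpha-mannosidosis, had the highest log2 ratio of the whole set, 1.55 (1.52 to 1.57), with 545 and 1592 CPM. Its gene lies at chr8:85083270-85098282 on GRCm38, with no exon shared with another gene in the GENCODE annotation. Gusb, beta-glucuronidase, was at 157 and 318 CPM (log2 ratio 1.02, interval 0.97 to 1.06). Glb1, the beta-galactosidase that degrades GM1 ganglioside, was at 71.2 and 136 CPM (log2 ratio 0.94). Manba, beta-mannosidase, which acts after Man2b1 and other enzymes on the core of N-glycans, was low at 25.2 and 39.2 CPM (log2 ratio 0.64, interval 0.53 to 0.75). These 4 enzymes cleave mannose, glucuronic acid and galactose residues. Gaa, the acid alpha-glucosidase that degrades glycogen, and Neu1, the lysosomal sialidase, were not past the threshold, with log2 ratios of 0.43 and 0.40. Hexa, the alpha subunit of beta-hexosaminidase A, was the lowest of the 7, at 746 and 701 CPM (log2 ratio -0.09). The summed level of the 8 glycosidases was 1683 CPM in vehicle and 2969 CPM in corticosterone.

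Of the 8 lipid hydrolases, activators and other soluble proteins, Ifi30 and Npc2 were higher. Ifi30, the interferon-inducible thiol reductase GILT, which opens disulfide bonds of proteins in the lysosome, was at 114 and 311 CPM (log2 ratio 1.45, interval 1.40 to 1.49). Npc2, which carries cholesterol inside the lysosome, was at 694 and 1043 CPM, and its log2 ratio of 0.59 was just past the threshold of 1.5 times. Grn, progranulin, the precursor of lysosomal granulins, was just short of it with 1355 and 1981 CPM and a log2 ratio of 0.55. Psap, the precursor of the saposins, Lipa, the acid lipase for cholesteryl esters, Asah1, acid ceramidase, and Ppt1, palmitoyl-protein thioesterase, had log2 ratios from 0.16 to 0.40. Creg1, a lysosomal glycoprotein, was at 448 and 440 CPM (log2 ratio -0.03). Exons of Ppt1 overlap those of Cap1 on the opposite strand, and whether counting used strand is not given in the sources used here. The same holds for Ctsz and Nelfcd, and for Ifi30, which the GENCODE annotation lists as a processed transcript, and 6330537M06Rik. Glb1 shares exons with Tmppe on the same strand, so strand could not separate their reads. Ctsd and Ctsl also overlap a gene on the same strand (Gm49369 and Gm49230). Ctsa, Ctsb, Ctsl, Lamp1, Hexa, Grn and Npc1 overlap genes on the opposite strand.

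Of the 7 membrane proteins, only Cd68 was past the threshold, and the structural proteins Lamp1 and Lamp2 were not. Cd68, macrosialin, a heavily glycosylated protein of late endosomes in phagocytes, was at 895 and 1429 CPM (log2 ratio 0.68, interval 0.66 to 0.69). The tetraspanin Cd63 was just short of the threshold at 517 and 733 CPM (log2 ratio 0.50). Lamp1 was at 965 and 1118 CPM (log2 ratio 0.21) and Lamp2, which takes part in chaperone-mediated autophagy, at 482 and 538 CPM (log2 ratio 0.16). Scarb2, a heavily glycosylated protein of the lysosomal membrane, and the cholesterol transporter Npc1 had log2 ratios of -0.01 and -0.08. Laptm5, a lysosomal protein of blood-derived cells, had the lowest value of the 7, 3053 and 2808 CPM (log2 ratio -0.12). The median over the 7 was 0.16. Scaling with TMM or DESeq2 factors moved all genes of microglia-like cells up by 0.10 and 0.12, and with either one the values of Hexa, Npc1, Scarb2 and Creg1 lay above 0.

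**Figure D2:**
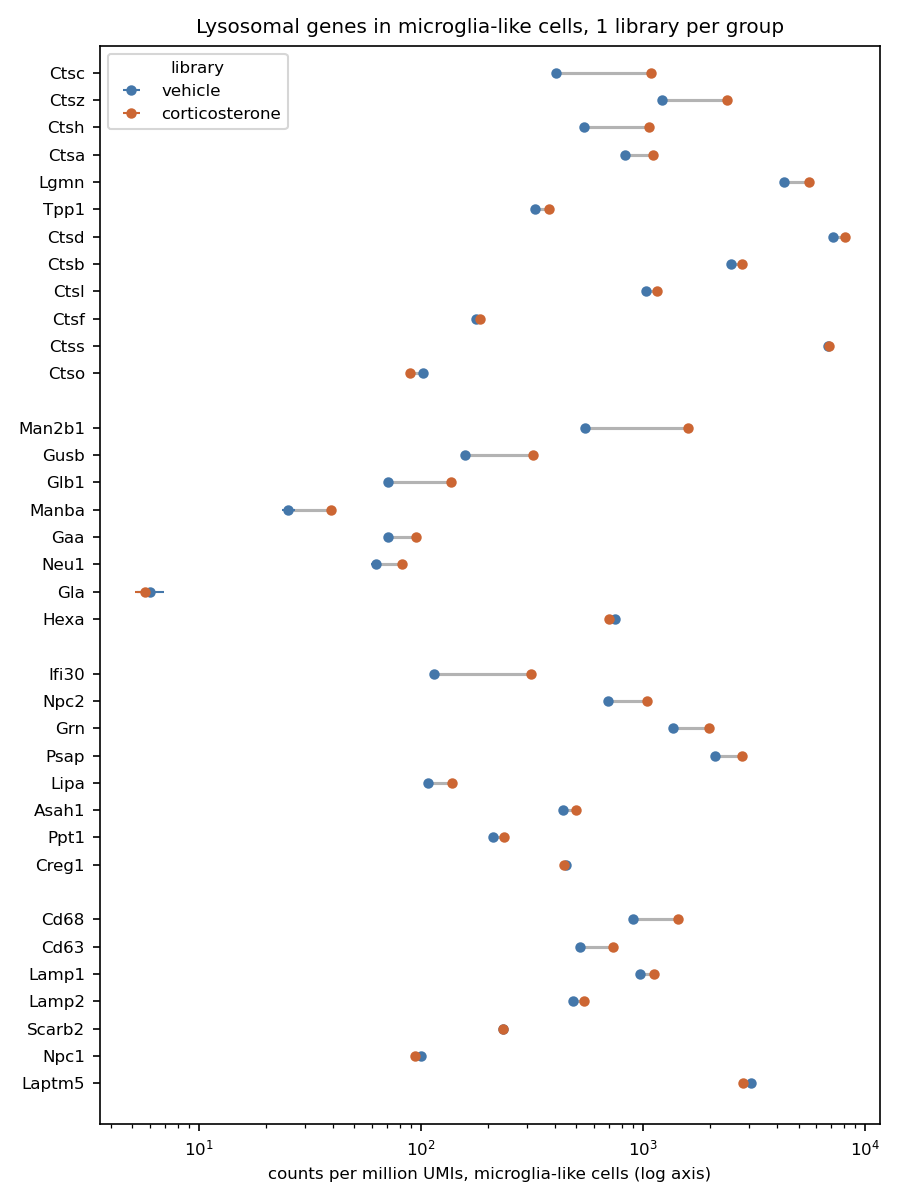
Level of each of the 35 genes in microglia-like cells as CPM on a log axis, 1 point per library with its exact 95% counting interval, in blocks from top to bottom of proteases, glycosidases, soluble proteins and membrane proteins. The widest gaps between points are those of Man2b1 (545 and 1592 CPM), Ifi30 and Ctsc, and the points of Ctss, Scarb2 and Creg1 nearly coincide.

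The cluster makeup of microglia-like cells differed between libraries, so the comparison was repeated inside each cluster. Man2b1 had nearly the same ratio in all 4 clusters: log2 1.59 in cluster 0, 1.57 in cluster 1, 1.55 in cluster 2 and 1.57 in cluster 6. Its vehicle level lay between 471 and 546 CPM and its corticosterone level between 1401 and 1644 CPM, so the libraries did not overlap in any cluster. Ctsc followed with log2 ratios of 1.28, 1.21, 1.16 and 0.81, and Ifi30 with 1.59, 0.78, 1.08 and 1.56, the last from only 6 vehicle UMIs. Cd63 differed in direction, higher in clusters 0 and 2 (log2 ratios 0.52 and 0.25) and lower in cluster 1 (-0.32, with 920 and 739 CPM). Ctsb, a cysteine protease, likewise had a log2 ratio of -0.23 in cluster 1, against 0.17 in cluster 0. The median over the 34 genes was 0.39, 0.33, 0.20 and 0.32 in clusters 0, 1, 2 and 6. The log2 ratio was above 0 for 30, 27, 29 and 26 of them. Medians and shares of all genes are not given per cluster, so these values cannot be set against those of other genes. Median depth in vehicle and corticosterone was 1440.5 and 3560 UMIs in cluster 0, and 2465 and 4449 in cluster 1.

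Counted per cell, the whole distribution of microglia-like cells lay higher in the corticosterone library. With each cell thinned to 1000 UMIs, which left out 676 vehicle and 96 corticosterone microglia-like cells, the median cell had 3.70% of its UMIs in the 35 genes in vehicle and 4.70% in corticosterone. The range from the 5th to the 95th percentile was 2.5% to 5.3% in vehicle and 3.3% to 6.5% in corticosterone. At that depth the median cell showed 14 of the 35 genes in vehicle and 17 in corticosterone. Man2b1 was detected in 38.4% of vehicle cells (37.3% to 39.5%) and 76.6% of corticosterone cells (76.0% to 77.3%), and Ctsc in 32.3% and 64.1%. Without thinning these shares were 71.4% and 97.8% for Man2b1 and 65.8% and 95.3% for Ctsc. Erythroid-like cells, which should carry few lysosomal transcripts, gave 1 of 17 thinned vehicle cells and 1 of 5 thinned corticosterone cells with Man2b1 (median depths before thinning 4664 and 1233 UMIs over all erythroid-like cells, against 3157.5 and 4007 in microglia-like cells), and a median of 0.50% of UMIs in the 35 genes in both libraries. The upper quartile was 0.60% in vehicle and 3.7% in the 5 corticosterone cells.

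**Figure D3:**
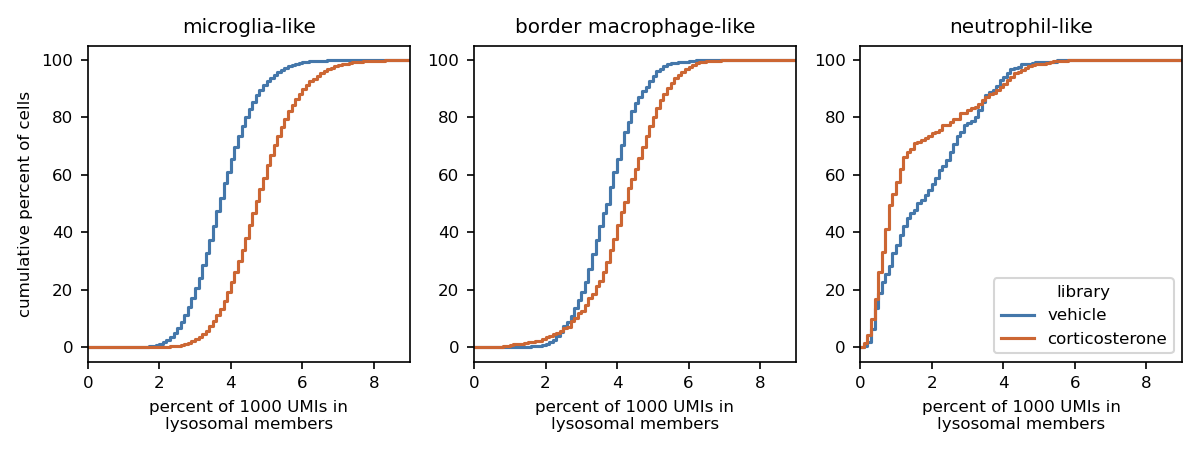
Cumulative percent of cells (vertical) by the percent of 1000 thinned UMIs that fall in the 35 lysosomal genes (horizontal), by cell class and library. In microglia-like cells the corticosterone curve lies to the right of the vehicle curve over its whole course (medians 3.70% and 4.70%), and in neutrophil-like cells its lower part lies to the left (medians 1.6% and 0.9%).

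The promoters of several of the genes hold the E-box core of the TFEB family. Of the 35 genes, 31 matched a promoter in RefSeq (GRCm38.p6), taken from 250 bases before to 50 bases after the start, and Ctsb, Ctsh, Npc1 and Asah1 did not. The core, CACGTG, a palindrome that reads the same on both strands, occurred in 10 of the 31, and in 29.4% of their 34 promoters, against 7.15% of 32851 promoters of that length. The longer palindrome TCACGTGA, which contains it, occurred in Ctsa, Ctsd, Gla and Ifi30, 11.8% of the 34 promoters, against 0.974% of all. Of the 9 matched genes that were past the threshold in microglia-like cells, 2 held CACGTG (Glb1 and Ifi30), and of the other 22, 8 did (Ctsa, Ctsd, Ctsf, Ctsl, Gaa, Gla, Lamp1 and Lgmn), a difference that was not tested. Lamp1 held 4 copies, whose first bases lie 61, 45, 28 and 15 bases before the start, Ifi30 held 1 copy 196 bases before the start, and Man2b1 held 0. These counts describe letters in a window, and nothing about binding or regulation was tested. Printed 5′ to 3′ on the strand of the gene, with each CACGTG in capitals, the windows below show the gene with the most copies (Lamp1, chr8:13158911-13159210, plus strand), Ifi30 (chr8:70766614-70766913, minus strand) and Glb1 (chr9:114400828-114401127, plus strand), Ctsd, with 2 copies (chr7:142387778-142388077, minus strand) and Man2b1, which had the highest ratio in microglia-like cells and no copy (chr8:85083019-85083318, plus strand).
Lamp1: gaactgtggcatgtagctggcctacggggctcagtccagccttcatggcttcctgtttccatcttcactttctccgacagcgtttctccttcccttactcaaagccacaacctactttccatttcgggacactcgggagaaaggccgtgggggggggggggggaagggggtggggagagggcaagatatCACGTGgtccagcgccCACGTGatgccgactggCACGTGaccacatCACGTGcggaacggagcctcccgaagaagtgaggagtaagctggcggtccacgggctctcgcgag
Ifi30: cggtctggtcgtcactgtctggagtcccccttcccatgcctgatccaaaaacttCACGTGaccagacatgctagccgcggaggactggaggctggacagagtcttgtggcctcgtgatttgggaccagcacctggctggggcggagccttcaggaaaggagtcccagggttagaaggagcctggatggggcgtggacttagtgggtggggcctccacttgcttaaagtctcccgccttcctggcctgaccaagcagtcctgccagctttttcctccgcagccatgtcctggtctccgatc
Glb1: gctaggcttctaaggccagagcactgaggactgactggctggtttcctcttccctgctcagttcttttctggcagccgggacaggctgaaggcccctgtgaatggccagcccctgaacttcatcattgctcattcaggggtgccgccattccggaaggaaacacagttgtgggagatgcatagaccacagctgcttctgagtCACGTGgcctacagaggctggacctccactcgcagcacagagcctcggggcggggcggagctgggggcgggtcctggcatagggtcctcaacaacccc
Ctsd: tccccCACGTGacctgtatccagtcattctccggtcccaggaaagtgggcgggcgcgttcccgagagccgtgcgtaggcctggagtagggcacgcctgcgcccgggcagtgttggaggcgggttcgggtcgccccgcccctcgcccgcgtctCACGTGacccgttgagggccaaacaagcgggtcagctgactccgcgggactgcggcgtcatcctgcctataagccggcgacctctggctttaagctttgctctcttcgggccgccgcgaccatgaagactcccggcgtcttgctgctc
Man2b1: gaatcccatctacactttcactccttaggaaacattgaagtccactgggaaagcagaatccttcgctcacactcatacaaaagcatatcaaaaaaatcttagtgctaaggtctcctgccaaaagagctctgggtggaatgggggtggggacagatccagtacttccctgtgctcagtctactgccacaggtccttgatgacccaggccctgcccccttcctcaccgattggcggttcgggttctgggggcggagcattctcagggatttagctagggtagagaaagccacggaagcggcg

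Border macrophages line the meninges and vessels. In border macrophage-like cells, 10 of 34 genes at the level were higher in corticosterone (29.4%, against 6.41% of 6582 genes) and 0 were lower (against 5.01%). The median log2 ratio was 0.29, where all genes had 0.02, and 24 of the 34 were above 0. Man2b1 was again the highest, with 554 and 1245 CPM (log2 ratio 1.17, interval 1.12 to 1.21), followed by Ifi30 with 111 and 231 CPM (1.05) and Ctsc with 823 and 1612 CPM (0.97). Cd63, not past the threshold in microglia-like cells, was past it here with 689 and 1257 CPM (0.87). The other genes past the threshold were Glb1 (0.80), Gusb (0.75), Cd68 (0.74), Ctsz (0.69), Manba (0.64) and Npc2 (0.63). Ctsh, past it in microglia-like cells, was not past it here, with 587 and 811 CPM (0.47). Genes past the threshold in both classes are not a separate observation, because this class also carried microglia markers. Its makeup also differed between libraries. Its 10 macrophage markers summed to 3341 CPM in vehicle and 7368 CPM in corticosterone. At a Leiden resolution of 1.0, macrophage-like cells formed a cluster of 1013 vehicle and 15 corticosterone cells and a cluster of 185 and 781. Microglia markers were higher in the former, at a geometric mean of 1.11 of the level of all cells, against 0.516 in the latter. Median depth of vehicle cells was 8180 UMIs in the former and 2504 in the latter, where corticosterone cells had 6720. How far this split enters the ratios was not tested. Laptm5 (2637 and 2139 CPM), Ctss (6308 and 5127 CPM) and Ctso were at the low end, each with a log2 ratio of -0.30, and Hexa was at -0.04, Creg1 at -0.26 and Ctsd at -0.24.

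Microglia markers in this class stood at 0.858 and 0.676 of the microglia-like level. In the 132 vehicle and 358 corticosterone macrophage-like cells with at most 1% of their UMIs in microglia markers, those markers stood at 0.243 and 0.288 of the microglia-like level. There 5 of 34 genes were higher, 14.7% against 11.2% of the 6566 genes at the level in these cells, and 1 was lower, against 12.6%. Ctsc was at 2520 and 2279 CPM in these cells (log2 ratio -0.14, interval -0.24 to -0.04), compared with 0.97 in the whole class. Man2b1 was at 536 and 861 CPM (log2 ratio 0.68, interval 0.48 to 0.89), Ctsz at 758 and 1245 CPM (0.72), Cd68 at 1245 and 1889 CPM (0.60), Gusb at 155 and 245 CPM (0.66) and the sialidase Neu1 at 66.4 and 131 CPM (0.98, from 27 vehicle UMIs). Scarb2 was at 167 and 108 CPM (-0.64, interval -1.05 to -0.22). The median over the 34 genes was 0.24, where all genes had -0.03. Of the genes past the threshold in the whole class, only Ctsz, Cd68, Gusb and Man2b1 were past it in the subset. Cd63 was at 0.54 there, Npc2 at 0.52, Glb1 at 0.24 and Manba at -0.25, and Ifi30 was not past the threshold. Among these genes only Ctsz had a ratio above that of the whole class (0.69). Neu1 also had a higher one, but was not past the threshold in the whole class (0.50). The part of microglial RNA in the values of the whole class was not tested.

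**Figure D4:**
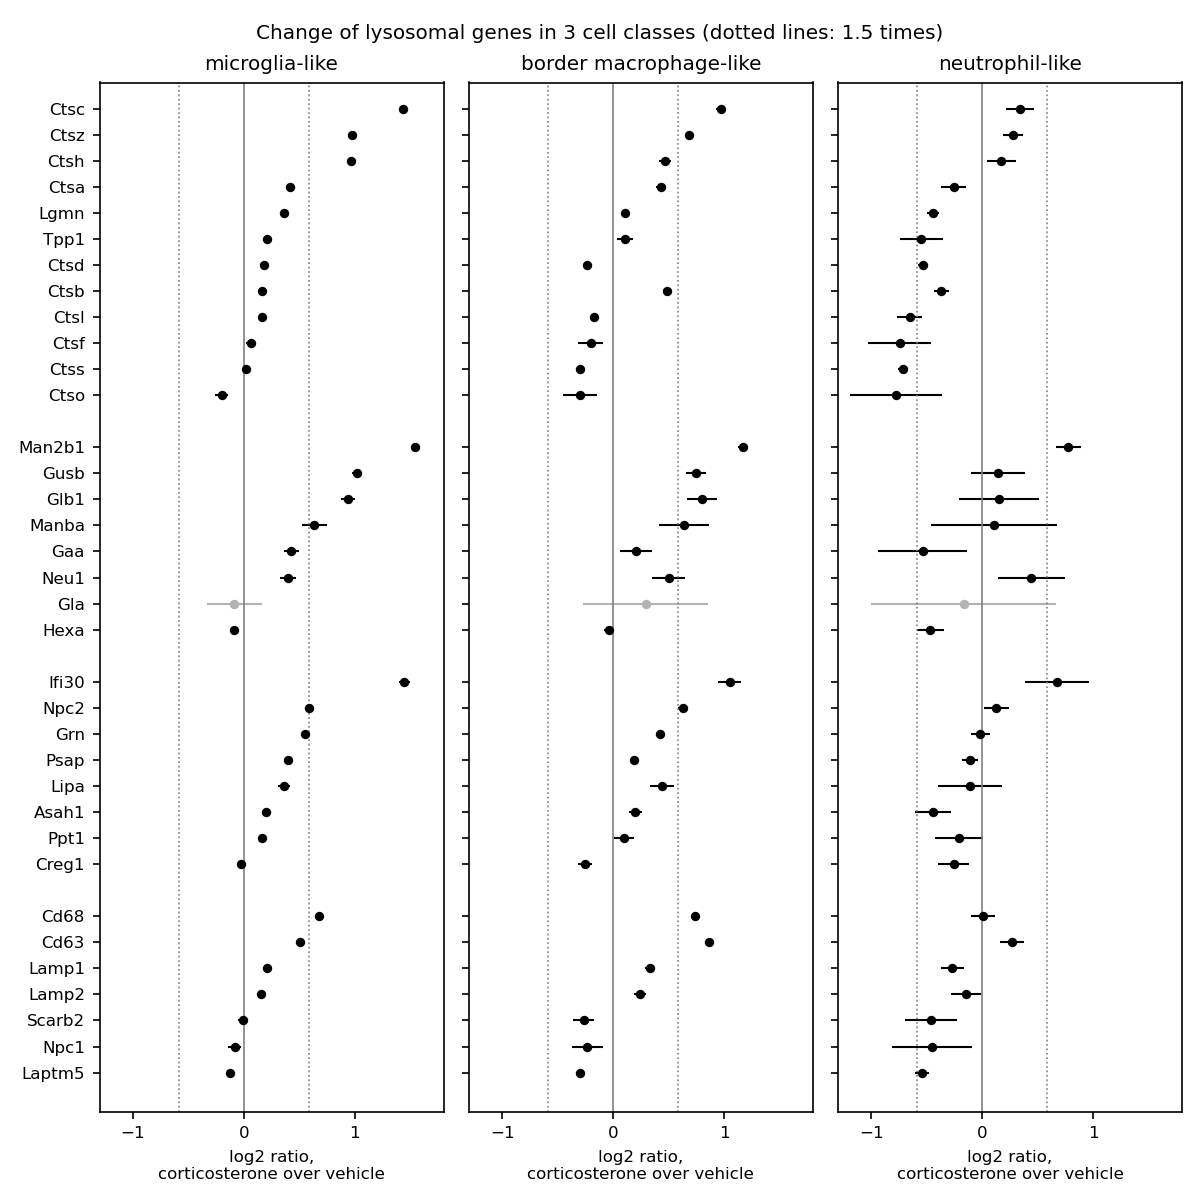
Log2 ratio of corticosterone over vehicle for each of the 35 genes in microglia-like, border macrophage-like and neutrophil-like cells, with exact 95% counting intervals and dotted lines at 1.5 times; Gla (grey) is under the level minimum. Man2b1 is at 1.55, 1.17 and 0.78, and the proteases at the foot of their block move from near 0 in microglia-like cells to -0.72 (Ctss) and -0.78 (Ctso) in neutrophil-like cells.

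In neutrophil-like cells, the genes as a group were not higher in corticosterone. Of 34 at the level, 2 were higher (5.88%, against 8.94% of 5939 genes) and 4 were lower (11.8%, against 15.8%), and 22 had a log2 ratio below 0. The median was -0.23, where all genes had -0.11. Man2b1 was at 431 and 739 CPM (log2 ratio 0.78, interval 0.66 to 0.89) and Ifi30 at 71.1 and 113 CPM (0.67, interval 0.39 to 0.96). The 4 lower genes were the proteases Ctss with 4286 and 2611 CPM (-0.72), Ctsl with 665 and 422 CPM (-0.66), Ctsf with 117 and 69.7 CPM (-0.74) and Ctso with 57.1 and 33.4 CPM (-0.78). Ctsc, whose product activates the elastase and other serine proteases of neutrophil granules, was at 379 and 480 CPM (0.34). Of the other genes past the threshold in microglia-like cells, Ctsz (0.27), Ctsh (0.17), Glb1 (0.15), Gusb (0.14), Npc2 (0.13), Manba (0.10) and Cd68 (0.01) were not past it here. Laptm5 was at -0.54, Hexa at -0.47, Creg1 at -0.26 and Ctsd at -0.54. TMM and DESeq2 factors moved all genes of this class up by 0.18 and 0.17, after which Lamp2, Grn, Psap and Lipa lay above 0 and 1 gene was lower. The class held 2 clusters, of which cluster 5 (203 and 276 cells) had 2 of 34 genes lower (14.8% of all genes were) and a median of -0.06, the same as all genes. Cluster 7 (229 and 123 cells, led by the granule genes Camp, Ltf and Ngp) had 16 of 33 lower (23.1% of all genes were) and a median of -0.54, where all genes had -0.14. Median depth in cluster 7 was 2855 UMIs in vehicle and 7517 in corticosterone, and the part of this gap in the ratios was not tested.

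Microglia markers in this class stood at 0.588 of the microglia-like level in vehicle and 0.352 in corticosterone. In the 208 vehicle and 326 corticosterone neutrophil-like cells with at most 1% of UMIs in microglia markers, those markers stood at 0.117 and 0.125. Neutrophil markers of these cells summed to 331190 CPM in vehicle and 264952 CPM in corticosterone. There 12 of the 30 genes at the level were higher, 40.0% against 11.8% of 4992 genes, and 0 were lower, against 7.15%. The median log2 ratio was 0.44, where all genes had 0.09. Ctsc was at 90.9 and 255 CPM (log2 ratio 1.49, interval 1.10 to 1.90), Ifi30 at 20.9 and 58.8 CPM (1.5, from 14 vehicle UMIs), Ctsz at 183 and 437 CPM and Cd68 at 158 and 343 CPM (1.12). Man2b1 was at 226 and 440 CPM (0.96) and progranulin at 292 and 573 CPM (0.97). Ctss, lower in the whole class, was at 915 and 1113 CPM (0.28, interval 0.15 to 0.42). The median also lay above 0 in cells of 2000 to 6000 UMIs (0.15) and with classes from a rule per cell (0.25), so its sign depended on which cells were summed. The part of microglial RNA in these ratios was not tested.

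**Figure D5:**
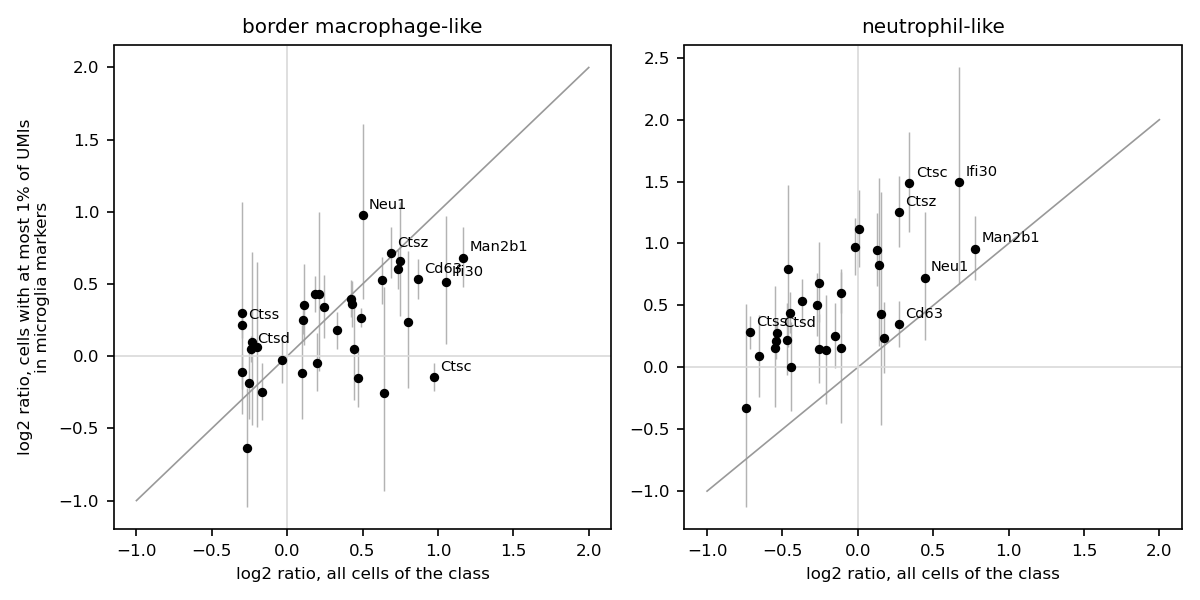
Log2 ratio of corticosterone over vehicle in all cells of the class (horizontal) and in its cells with at most 1% of UMIs in microglia markers (vertical, with exact 95% counting intervals), for the genes at the level in both; the line marks equal values. Ctsc lies at 0.97 and -0.14 in macrophage-like cells and at 0.34 and 1.49 in neutrophil-like cells, where most points lie above the line.

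Across the 3 classes, 12 of the 34 genes had a ratio above 0 in each (Ctsc, Ctsh, Ctsz, Cd68, Cd63, Gusb, Npc2, Man2b1, Manba, Neu1, Ifi30 and Glb1) and 6 a ratio below 0 in each (Ctso, Hexa, Npc1, Laptm5, Scarb2 and Creg1), although with TMM or DESeq2 factors Hexa, Npc1, Scarb2 and Creg1 lay above 0 in microglia-like cells. Of the 5370 genes at the level in all 3 classes, 22.2% had a ratio above 0 in each and 33.0% below 0 in each. All 3 classes of a library carried microglia markers, so these counts are not 3 separate observations. The levels also differed between classes within a library. Ctsc was higher in macrophage-like than in microglia-like cells by a log2 ratio of 1.03 in vehicle and 0.57 in corticosterone, Cd63 by 0.41 and 0.78, and Ctsb by 0.39 and 0.71. Ctsd was lower in neutrophil-like than in microglia-like cells by log2 ratios of -0.65 and -1.36, and Ctss by -0.66 and -1.39. Gla was higher there, at 11.8 and 10.6 CPM against 6.03 and 5.68 CPM in microglia-like cells, from 28 and 25 UMIs.

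Other genes of the lysosome were taken from 6 lists and compared in microglia-like cells by the same measures. The counts are to be read against the 5.36% of all genes that were higher and the 4.72% that were lower, and most are too small to stand apart from these shares. Among 26 other hydrolases and activators at the level, 2 were higher and 0 lower, with a median log2 ratio of 0.28. Lyz2, lysozyme, was the highest of that list at 345 and 566 CPM (0.71). Idua, alpha-L-iduronidase, was the lowest at 49.7 and 38.6 CPM (-0.37). Of the proton pump, 0 of 17 subunits were past the threshold, with a median of 0.00 and a range from -0.23 (Atp6v1d) to 0.36 (Atp6v1b2). Among 23 other membrane proteins the median was -0.11, and 3 transporters were higher: Slc11a1, NRAMP1, a divalent metal transporter of phagosomes, at 189 and 484 CPM (1.36), the peptide transporter Slc15a3 at 163 and 274 CPM (0.75) and the nucleoside transporter Slc29a3 at 411 and 656 CPM (0.67). Cd164 was the lowest of them at 731 and 523 CPM (-0.48).

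Genes for delivery to the lysosome had a median of -0.03, with 1 of 22 higher, the sorting receptor Sorl1 at 28.1 and 51.9 CPM (0.89), and the lowest value in the tethering subunit Vps39 at 43.7 and 33.4 CPM (-0.39). Regulators of lysosome number and nutrient sensing had a median of -0.10, with 0 of 15 higher and 2 lower, the folliculin partners Fnip1 at 101 and 65.0 CPM (-0.63) and Fnip2 at 36.9 and 22.3 CPM (-0.73), while Lamtor2 was the highest (0.28). Tfeb itself was at 36.9 and 37.5 CPM (0.02). Of the cathepsin inhibitors only Cst3 and Cstb reached the level. Cst3, cystatin C, an inhibitor of cysteine cathepsins, was lower, at 39229 and 18827 CPM (log2 ratio -1.06), and Cstb was at 107 and 111 CPM (0.05). In macrophage-like cells 3 of the inhibitors reached the level, with a median of 0.52 and Serpinb6a the highest (0.95). In neutrophil-like cells 7 did, of which 5 were higher and 1 lower, against 8.94% and 15.8% of all genes in that class. Their median was 0.75, with Stfa1, a stefin, the highest at 11.8 and 64.6 CPM (2.45). Stfa2l1 and Slpi of this list were among the leading genes of neutrophil-like cluster 5. That cluster held 203 of 432 vehicle and 276 of 399 corticosterone cells, and the part of this makeup in the ratios was not tested. In macrophage-like and neutrophil-like cells the log2 ratio of Cst3 was -1.29 and -1.71, that of Slc11a1 was 1.08 and 0.67, that of Sorl1 was 0.64 and 1.08, and that of Lyz2 was 1.62 and 0.81.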

How the data were processed

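The authors deposited UMI counts for every gene and barcode, as whole numbers with no normalisation. Per the submitters' processing notes, bcl2fastq 2.19 and the GRCm38 build were used; the aligner, counter, strand setting and annotation are not given in the sources used here. The files carry the words wild type and depression in their names, and each was assigned through its sample record to vehicle or corticosterone, on which every direction rests. Cells with at least 500 UMIs, 300 genes and at most 20% mitochondrial UMIs were kept (55 and 230 barcodes removed). Scrublet marked 0 cells in either library, so it was treated as failed and doublets were left in.

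Cells were clustered together with scanpy 1.11.5 (2000 variable genes without the lysosomal ones, 30 components, Leiden resolution 0.5) and named from marker lists. The rule was 3 or more markers at 2 times the level of the other cells, which no microglia-like cluster met. Those clusters had 3 or more microglia markers detected in at least 10% of cells, at a geometric mean of at least 0.5 of all cells. In cluster 6 the list with most markers at 2 times was that of monocytes. Cluster 4 (540 and 1144 cells, median 974 and 1235.5 UMIs) stayed unnamed. UMIs were summed per class and library, scaled to CPM, and compared as log2 ratios. Poisson and conditional binomial intervals are exact and were tested on simulated data, and shares have exact Clopper-Pearson intervals. edgeR 4.0.16 and DESeq2 1.42.0 gave alternative scaling factors only, since 1 library per group allows no test. Alternatives covered scaling, depth, filters, doublet scores, clustering, thresholds and microglial RNA. By rule, the text names in each role the genes past 1.5 times and the extremes, and in each other list the extremes. A few further genes (such as Tfeb, Slc15a3 and Fnip1) were named after their values were seen, and 1 of the 2 other hydrolases past the threshold is not reported here. Gene identifiers of 35 of 35 members matched GENCODE vM21. The members and lists were chosen with earlier results of these data known.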

Additional observations from a re-analysis of the deposited data

How the results depend on the processing

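No paired analysis was possible because each group had 1 library. In microglia-like cells, the median stayed between 0.20 (cluster 2 alone) and 0.48 (DESeq2 size factors) over 21 alternatives, and 7 of the 10 genes past 1.5 times kept that call in the 17 settings that do not alter the threshold or the level minimum, the others being Cd68, Manba and Npc2. With a threshold laxer than 1.5 times, 18 genes were higher in microglia-like cells, 17 in macrophage-like cells and 4 in neutrophil-like cells, where 14 were lower. With a threshold of 2 times these counts were 4, 2, 0 and 0. Shares of all genes are not given for these thresholds, nor for most of the settings below. Such counts therefore cannot be set against those of other genes.

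In macrophage-like cells the median stayed between 0.12 and 0.34. Of the 10 genes past 1.5 times there, 1 (Cd68) kept that call in all 14 such settings, and of the 6 in neutrophil-like cells 0 did in 16. The cells in the lowest 25% by microglia marker share gave 5 genes higher and 6 lower, with Ctsz at -0.0037, Manba at -0.22, Man2b1 at 0.23 and Ifi30 at 0.26, but their marker level was 0.449 in vehicle and 0.137 in corticosterone. Cells with at most 1%, a subset added after the data had been seen, gave 5 higher and 1 lower, with Ctsc at -0.14 and Manba at -0.25. Cells of 2000 to 6000 UMIs gave 1 lower.

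In neutrophil-like cells the median ranged from -0.54 to 0.44. TMM and DESeq2 factors each gave 1 gene lower. The mean of per-cell CPM and the thinned cells each gave 1 higher and 9 lower, and removal of the highest doublet scores gave 0 higher and 15 lower. Cells of 2000 to 6000 UMIs gave a median of 0.15, 4 higher and 2 lower, with Ctso at 0.061. Classes from a rule per cell gave a median of 0.25, 7 higher and 0 lower, with Ctsl at 0.069. The lowest 25% gave 4 higher, with Ctso at 2.42 and Ifi30 at -0.87. Both values came from few UMIs, so neither can be read as a change of that gene. Cells with at most 1% gave a median of 0.44, 12 higher and 0 lower, with Ctsl at 0.087 and Ctss at 0.28. Ctso, at 1.28, was under the level minimum in these cells and is not among the genes counted. Cluster 5 alone gave 2 lower, and cluster 7 alone, added likewise, a median of -0.54, 0 higher and 16 lower. The cause of these changes was not tested. Depth limits genes such as Gla, and intervals do not cover differences between animals or preparations.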

Other observations

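A small monocyte-like cluster of 44 vehicle and 107 corticosterone cells, with 178518 and 941759 UMIs, is described here for 5 of the genes, chosen after their values were seen. Man2b1 was at 415 CPM in the vehicle cells and 854 CPM in the corticosterone cells (log2 ratio 1.04, 95% counting interval 0.70 to 1.41), Gusb at 118 and 245 CPM (1.06, from 21 vehicle UMIs) and Cd63 at 263 and 473 CPM (0.84). Ctsc was at 1020 and 1284 CPM (0.33, interval 0.11 to 0.57). Ifi30 was at 263 and 333 CPM (0.34, interval -0.11 to 0.82).

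The unnamed cluster of low depth had Man2b1 at 409 and 980 CPM (log2 ratio 1.26, interval 1.09 to 1.44), Ctsc at 338 and 874 CPM (1.37) and Ifi30 at 69.3 and 177 CPM (1.35), with Laptm5 at 1766 and 1575 CPM (-0.16). Man2b1, Ifi30 and Ctsc also had the highest ratios in microglia-like cells, and counts over the other genes are not given here. The cluster carried microglia markers, at a geometric mean of 0.488 of all cells, and the part of microglial RNA in these values was not tested.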
